A study of Mus musculus with 6 samples.

Results

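The genes described here encode the ISG15 conjugation system and a group of interferon-induced antiviral effectors, 10 genes of the 38207 genes and loci in the deposited count table. They were chosen by name: each row whose symbol was Isg15, Uba7, Ube2l6, Herc6, Usp18, Isg20, Eif2ak2, Mx1, Mx2 or Samhd1 was taken, and each name matched 1 row. ISG15 is a ubiquitin-like protein that is attached to other proteins through an enzyme chain of activation (E1, UBA7), conjugation (E2, UBE2L6) and ligation (E3, HERC6 in mouse), and is removed again by the protease USP18. USP18 also binds the type I interferon receptor chain IFNAR2 and dampens its signalling. The other products act against viruses by different routes. ISG20 degrades RNA, and EIF2AK2 (PKR) halts translation when it binds double-stranded RNA. The MX proteins are dynamin-like GTPases that trap viral components, and SAMHD1 hydrolyses deoxynucleotides. Type I interferon induces these genes in many cells, microglia, the resident macrophages of the brain, among them.

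The libraries came from microglia of wild-type (WT) mouse brain, with 3 pools from sham-operated mice and 3 from mice given tMCAO. This abbreviation usually stands for transient occlusion of the middle cerebral artery, which models ischemic stroke. Each pool combined cells of 30 mice, all groups carried the same WT genotype, and the sources used here give no strain, age, time after surgery or isolation method. RNA was read as PCR-amplified cDNA on nanopores. Set against sham, the tMCAO libraries address how gene expression of microglia differs after stroke. Levels are given as CPM, the counts of a gene scaled to 1000000 counts of its library, and in such bulk pools more RNA per cell and more cells of a type cannot be told apart.

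Depth was lower after tMCAO, at 1855495 to 2030550 counts against 2371235 to 2614512 in sham, so 1 count was worth 0.382 to 0.539 CPM. The tMCAO libraries also detected fewer genes (25442 to 26566 against 27946 to 28543) and had a smaller mitochondrial share (0.830 to 1.04% against 1.79 to 3.35%). Each of these 3 differences had p = 0.1 in a two-sided exact permutation test, the smallest that 3 against 3 libraries allow. On the second principal component, which held 20.96% of the variance, tMCAO 3 lay far from tMCAO 1 and 2 (51.8, -29.8 and -22.4), and sham 1 lay at 13.1, above sham 2 and 3 at -2.32 and -10.4. Results that rest on these libraries are given with and without them. All 10 listed microglial markers were detected, with summed levels of 35418 to 36358 CPM in sham and 33058 to 36612 CPM in tMCAO. Of these 10 markers, 3 fell (P2ry12, Fcrls and Siglech, by 0.74, 0.61 and 1.07 on the log2 scale) and none rose, and 2 or 3 were called lower in each alternative.

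Promoter windows of 7 of the 10 genes were found in a RefSeq table for GRCm38.p6, and 3 are printed because they differ in the interferon-response motif. Usp18, Mx1 and Mx2 had no window there, so the motif shares below leave them out. Each window runs from 250 bases before the annotated start, and the start base counts as 0. In the first pair, capitals mark the core of the interferon-stimulated response element (ISRE), searched as GAAANNGAA on both strands. In the third, capitals mark a match to the shorter core bound by interferon regulatory factors, AANNGAAA, which overlaps the ISRE core and lies here on the opposite strand.
Isg15, chr4:156200769-156201068, minus strand: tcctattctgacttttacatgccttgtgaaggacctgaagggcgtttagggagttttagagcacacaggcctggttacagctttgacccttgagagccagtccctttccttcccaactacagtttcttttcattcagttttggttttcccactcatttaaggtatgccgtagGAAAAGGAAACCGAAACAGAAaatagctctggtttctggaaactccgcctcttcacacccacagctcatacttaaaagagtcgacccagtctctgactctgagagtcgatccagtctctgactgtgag
Eif2ak2, chr17:78882523-78882822, minus strand: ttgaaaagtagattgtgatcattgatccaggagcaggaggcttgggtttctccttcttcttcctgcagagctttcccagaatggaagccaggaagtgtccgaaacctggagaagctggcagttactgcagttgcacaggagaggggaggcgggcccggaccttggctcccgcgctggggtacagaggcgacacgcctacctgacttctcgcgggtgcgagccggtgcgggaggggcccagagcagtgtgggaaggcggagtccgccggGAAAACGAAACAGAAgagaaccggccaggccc
Uba7, chr9:107975317-107975616, plus strand: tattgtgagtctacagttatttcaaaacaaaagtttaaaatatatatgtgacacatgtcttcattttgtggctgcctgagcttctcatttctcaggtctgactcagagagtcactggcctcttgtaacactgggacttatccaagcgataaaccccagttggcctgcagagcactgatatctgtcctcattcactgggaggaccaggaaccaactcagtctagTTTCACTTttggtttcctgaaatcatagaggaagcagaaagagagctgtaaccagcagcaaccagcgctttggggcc

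Isg15 had 3 overlapping ISRE matches, beginning 78, 72 and 66 bases before the start. Eif2ak2 had 2, beginning 18 and 24 bases after it, inside the transcribed part. The windows of the other 5 genes, Uba7, Ube2l6, Herc6, Isg20 and Samhd1, held no ISRE letters. This gave 2 of 7 genes (28.6%), beside 9.76% of the 27025 genes in the table, 8.49% of 106 relatives listed below and 16 of 24 (66.7%) other interferon-stimulated genes. With the shorter core, 4 of 7 genes matched, Uba7 and Isg20 being added, against 26.7% of all genes. The core of the STAT dimer site (GAS, searched as TTCNNNGAA on both strands) was found in Isg20, Eif2ak2 and Samhd1, 73, 178 and 235 bases before the start, and in 9.55% of all genes. A match describes letters in the window and does not show that a factor binds there.

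**Figure D1:**
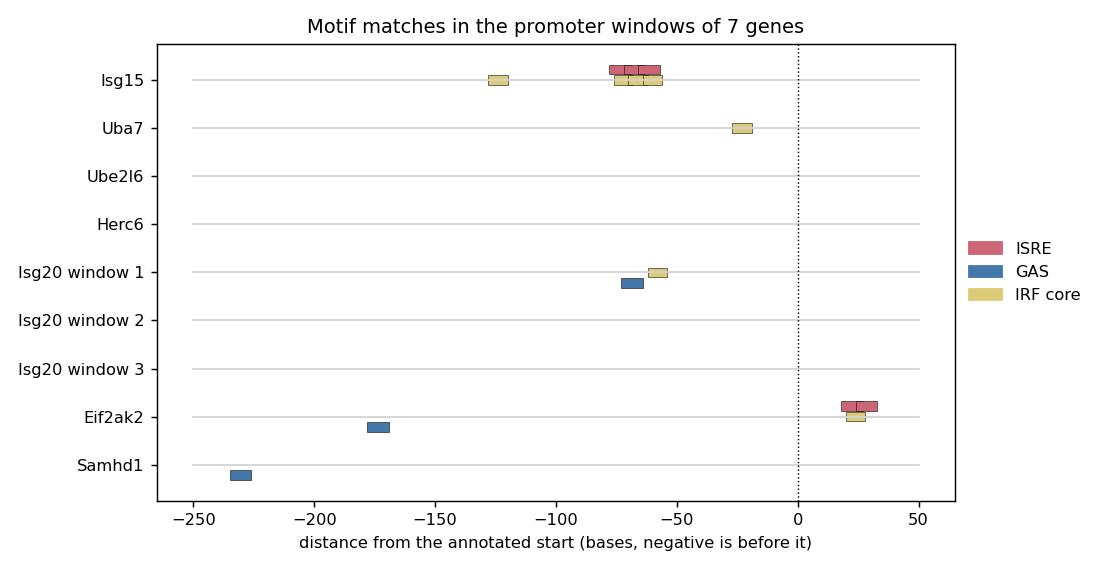
Positions of ISRE, GAS and interferon regulatory factor (IRF) core matches in the promoter windows of 7 genes, in bases from the annotated start; Isg20 has 3 windows. ISRE matches lie 78 to 58 bases before the start of Isg15 and 18 to 32 bases after that of Eif2ak2.

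All 10 genes were tested, and 5 rose after tMCAO: the modifier gene Isg15, its E1 gene Uba7, the protease gene Usp18, and the effector genes Mx1 and Samhd1. None fell. Of all 13127 genes and loci tested, 9.17% were called higher by edgeR's quasi-likelihood test at a Benjamini-Hochberg adjusted p under 0.05. In each of the 10 genes the 3 tMCAO libraries lay above the 3 sham libraries, a separation in this direction that 23.3% of all tested genes had. Their log2 fold changes ran from 0.38 to 3.48 with a median of 0.86, beside 0.00 for all tested genes, and 3 of the 10 exceeded 1. The summed level of the 10 genes was 206, 203 and 215 CPM in sham 1 to 3 and 423, 487 and 560 CPM in tMCAO 1 to 3. Without sham 3, or without sham 1 and tMCAO 3 together, 3 of the 10 genes were called, namely Isg15, Usp18 and Mx1.

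**Figure D2:**
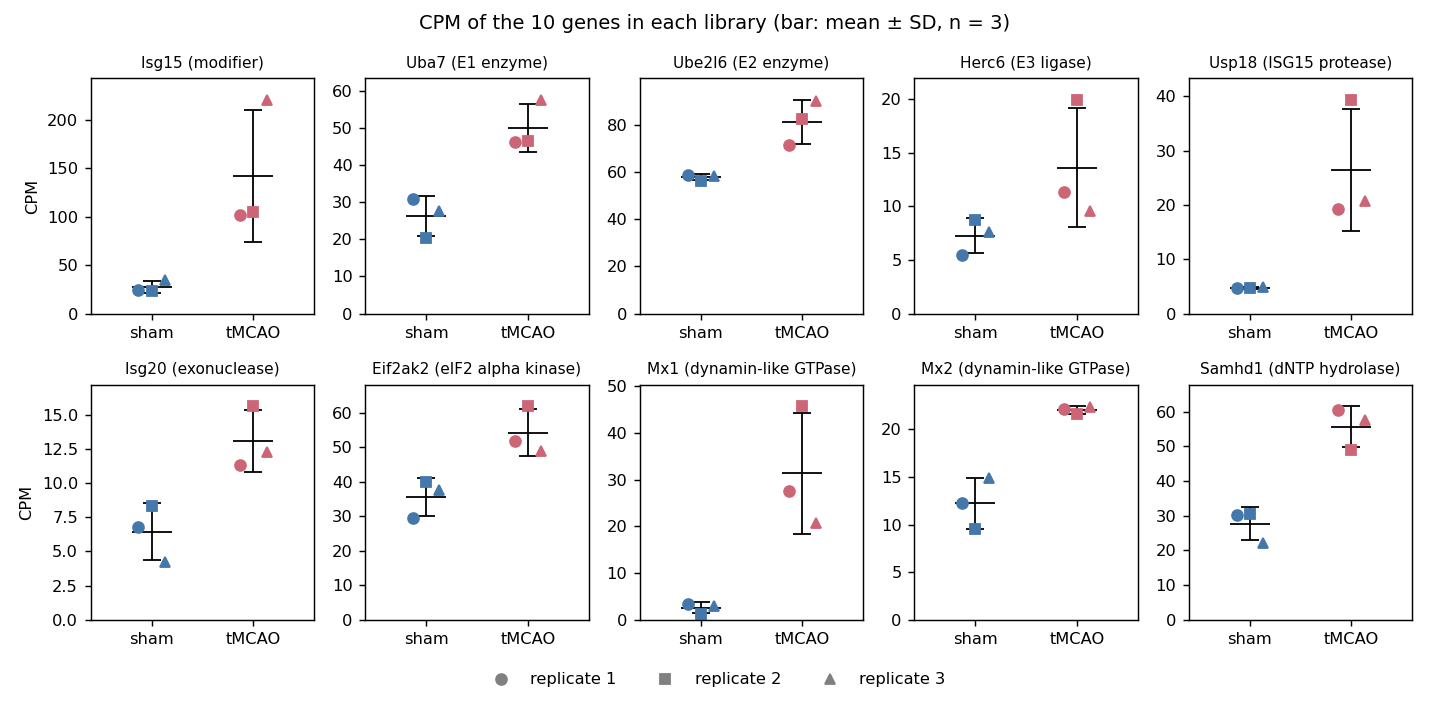
CPM of each gene in the 3 sham and 3 tMCAO libraries; points are libraries, shaped by replicate number, and bars give the mean and SD (n = 3). Every tMCAO point lies above every sham point of the same gene, with the narrowest gap in Herc6 (8.72 against 9.59 CPM).

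Isg15 (ENSMUSG00000035692) was at 24.0, 23.4 and 34.8 CPM in sham 1 to 3 and at 101, 105 and 220 CPM in tMCAO 1 to 3. The groups did not overlap, and tMCAO 3 was well above the other tMCAO libraries. The mean went from 27.4 ± 6.41 to 142 ± 67.8 CPM (SD, n = 3), a log2 fold change of 2.28 ± 0.38 (SE; 95% interval 1.40 to 3.16; adjusted p = 0.00642). The rise was smaller without tMCAO 3, at 1.77 (adjusted p = 0.000145), and 1.65 without sham 1 as well (adjusted p = 0.00120), and was called both times.

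Of the 3 enzyme genes of the chain, only Uba7 passed the test. Uba7 (ENSMUSG00000032596), the E1 gene, was at 30.8, 20.2 and 27.5 CPM in sham and 46.3, 46.3 and 57.5 CPM in tMCAO. It rose by a log2 fold change of 0.83 ± 0.22 (95% interval 0.35 to 1.30; adjusted p = 0.0200), with separate groups and tMCAO 3 again highest. This call was lost without sham 2 (0.69, adjusted p = 0.0719), without sham 3 (adjusted p = 0.0631) and without sham 1 and tMCAO 3 (adjusted p = 0.0575). Ube2l6 (ENSMUSG00000027078), the E2 gene, was at 58.6, 56.3 and 58.5 CPM in sham and 71.4, 82.5 and 90.0 CPM in tMCAO. Its sham libraries lay within a narrow range and below each tMCAO library, yet the log2 fold change of 0.38 ± 0.18 did not pass the test (95% interval -0.00 to 0.76; adjusted p = 0.157). Herc6 (ENSMUSG00000029798), the E3 gene, was at 5.48, 8.72 and 7.65 CPM in sham and 11.3, 19.9 and 9.59 CPM in tMCAO. tMCAO 2 lay well above sham and tMCAO 3 just above it, and the log2 fold change of 0.76 ± 0.35 was not called (95% interval -0.00 to 1.53; adjusted p = 0.154).

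Usp18 (ENSMUSG00000030107), the gene of the ISG15 protease, was at 4.64, 4.76 and 4.97 CPM in sham and 19.2, 39.3 and 20.8 CPM in tMCAO. Sham libraries were nearly alike, and the groups were wide apart, with tMCAO 2 highest. The mean went from 4.79 ± 0.169 to 26.4 ± 11.2 CPM, a log2 fold change of 2.32 ± 0.34 (95% interval 1.59 to 3.06; adjusted p = 0.000656). In all 16 alternatives tried it stayed called, between 1.97 and 2.54.

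Among the effectors, Mx1 (ENSMUSG00000000386) changed most. It was at 3.37, 1.19 and 3.06 CPM in sham, from 8, 3 and 8 counts, and at 27.6, 45.8 and 20.8 CPM in tMCAO, from 56, 85 and 39 counts. The lowest tMCAO library was 6.16 times the highest sham library. The log2 fold change of 3.48 ± 0.40 (95% interval 2.62 to 4.34; adjusted p = 0.000124) ranked 68 among the 13127 tested genes ordered by fold, and it stayed called between 3.15 and 3.89 in all 16 alternatives. Its paralog Mx2 (ENSMUSG00000023341) was at 12.2, 9.51 and 14.9 CPM in sham and 22.2, 21.6 and 22.4 CPM in tMCAO. The tMCAO libraries were nearly alike and above sham, but the log2 fold change of 0.73 ± 0.25 was not called (95% interval 0.18 to 1.28; adjusted p = 0.0628), except with library totals as the only scaling (0.84, adjusted p = 0.0436). In many laboratory mouse strains the Mx1 and Mx2 genes carry mutations that remove the functional protein. RefSeq marks both as transcribed pseudogenes in GRCm38.p6, while GENCODE M21 has Mx1 as protein-coding and Mx2 as a polymorphic pseudogene, so RNA of these genes does not show that protein was made.

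Samhd1 (ENSMUSG00000027639), the deoxynucleotide hydrolase gene, was at 30.4, 30.5 and 22.2 CPM in sham and 60.6, 49.0 and 57.5 CPM in tMCAO. It rose with a log2 fold change of 0.89 ± 0.21 (95% interval 0.43 to 1.35; adjusted p = 0.0117), and it was the only one of the 10 genes highest in tMCAO 1. The call was lost without sham 3 (0.72, adjusted p = 0.0617) and without sham 1 and tMCAO 3 (0.87, adjusted p = 0.0513). Isg20 (ENSMUSG00000039236), the RNA exonuclease gene, was at 6.75, 8.32 and 4.21 CPM in sham and 11.3, 15.6 and 12.2 CPM in tMCAO. All its tMCAO libraries lay above sham. Its log2 fold change was close to that of Samhd1, at 0.89, but with a larger SE of 0.35 it was not called (95% interval 0.15 to 1.64; adjusted p = 0.0910). Eif2ak2 (ENSMUSG00000024079), the PKR gene, was at 29.5, 40.0 and 37.5 CPM in sham and 51.7, 62.0 and 49.0 CPM in tMCAO. The groups were separate, and the log2 fold change of 0.48 ± 0.20 was not called (95% interval 0.05 to 0.91; adjusted p = 0.115). For the 5 genes not called, the upper ends of the intervals were 0.76 to 1.64 on the log2 scale, so rises of that size are not excluded. The intervals are per gene and unadjusted, while calls use p adjusted over all tested genes. The intervals of Isg20, Eif2ak2 and Mx2 therefore lie wholly above no change although these genes were not called.

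**Figure D3:**
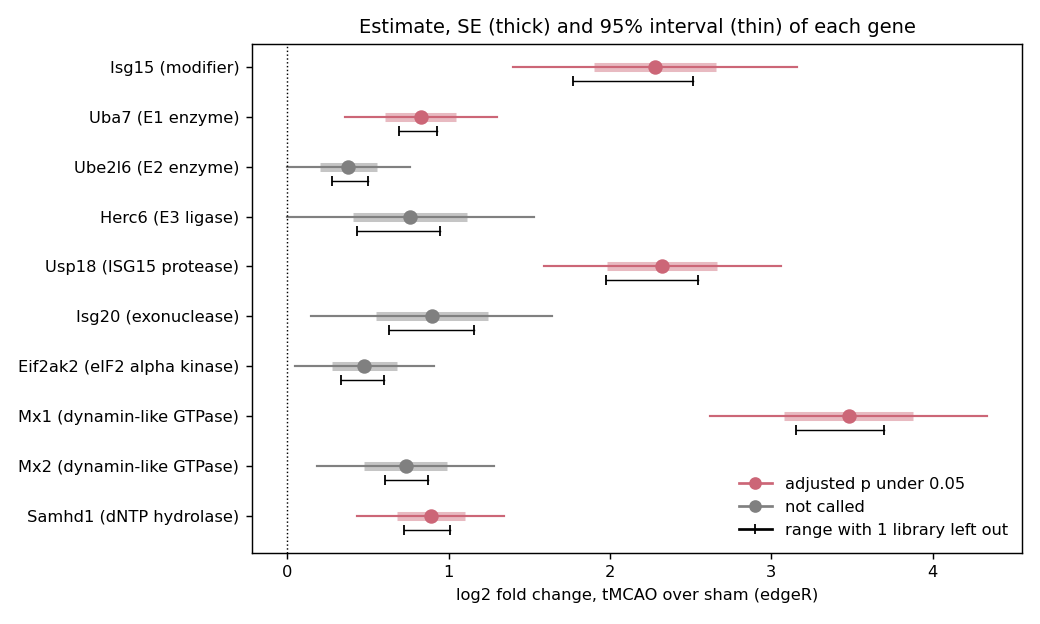
Log2 fold change of tMCAO over sham for each gene from edgeR, with SE (thick bar) and 95% interval (thin bar), and below each the range when 1 library is left out. Mx1, Usp18 and Isg15 lie between 2.28 and 3.48, the other 7 genes between 0.38 and 0.89.

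The genes did not peak in the same tMCAO library. Relative to the sham mean, the median fold over the 10 genes was 1.79 in tMCAO 1, 2.10 in tMCAO 2 and 1.99 in tMCAO 3. Isg15, Uba7, Ube2l6 and Mx2 were highest in tMCAO 3, while Herc6, Usp18, Isg20, Eif2ak2 and Mx1 were highest in tMCAO 2. Ratios of counts between genes of the set were chosen after these values were seen. For 5 ratios, a two-sided exact permutation test over the 6 libraries could not go below p = 0.1, so none could have been called. In that test p was 0.1 for 4 of them (0.125 adjusted over the 5), and 1 for Isg15 to Usp18. Isg15 had 5.18, 4.92 and 7.0 counts per count of Usp18 in sham and 5.28, 2.66 and 10.6 in tMCAO. The groups overlapped in this ratio, and the lowest and highest values were both in tMCAO, with exact binomial 95% intervals of 2.02 to 3.53 in tMCAO 2 and 7.63 to 15.1 in tMCAO 3 that cover counting error only. Mx1 had 0.276, 0.125 and 0.205 counts per count of Mx2 in sham and 1.24, 2.13 and 0.929 in tMCAO. This ratio was higher in each tMCAO library than in any sham library, as was that of Isg15 to Ube2l6, at 0.410, 0.415 and 0.595 in sham and 1.42, 1.27 and 2.45 in tMCAO.

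**Figure D4:**
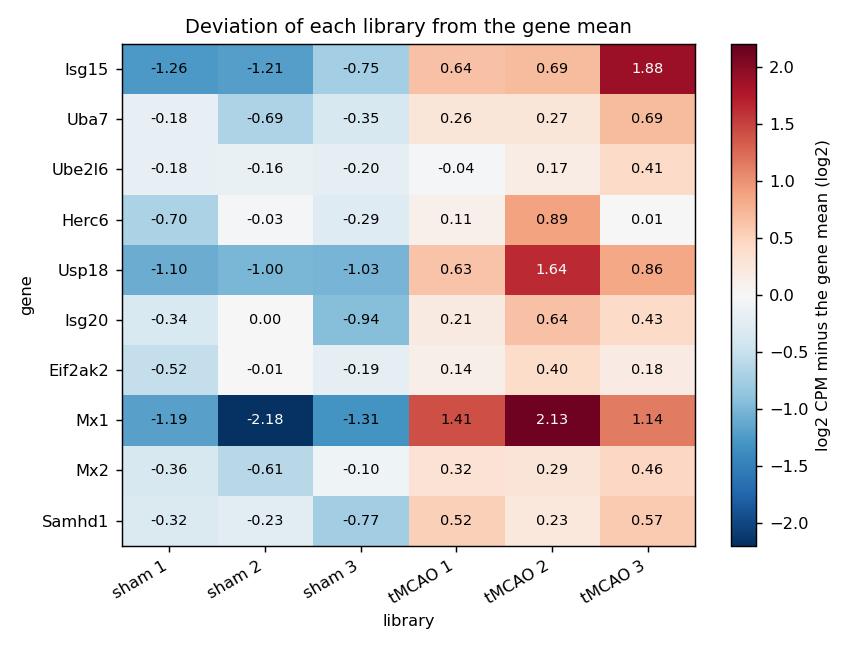
Deviation of each library from the gene's mean over the 6 libraries, in log2 CPM after TMM scaling. Among the tMCAO libraries, Isg15 is highest in tMCAO 3 (1.88), and Usp18 and Mx1 in tMCAO 2 (1.64 and 2.13); the largest deviation of Mx1 is -2.18 in sham 2, from 3 counts.

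Relatives of each gene were read from the same fit, where 8.96% of all tested genes were called lower beside the 9.17% called higher. Of the 8 E1 genes of ubiquitin and other ubiquitin-like proteins, 2 rose and none fell, with a median log2 fold change of 0.49. Sae1, a subunit of the SUMO-activating enzyme, went from 14.0 ± 3.31 to 33.5 ± 3.38 CPM (1.15 ± 0.24, adjusted p = 0.00595). Atg7, the autophagy E1, was also called (0.78, adjusted p = 0.0427), but in only 4 of 16 alternatives. Of 26 tested E2 genes, 1 rose and none fell (median 0.20): Ube2c, the cell cycle E2, was at 1.27, 2.38 and 2.68 CPM in sham and 49.2, 23.2 and 17.6 CPM in tMCAO (3.66 ± 0.46, adjusted p = 0.000305). With sham 1 and tMCAO 3 left out, or tMCAO 3 alone, 4 E2 genes were called.

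The genes of other ISG15 ligases moved in opposite directions. Trim25, a RING ligase that acts as an ISG15 E3 in human cells, was at 4.64, 8.72 and 7.27 CPM in sham and 30.5, 41.0 and 43.1 CPM in tMCAO. It rose by 2.34 ± 0.29 on the log2 scale (adjusted p = 0.000242), with every tMCAO library far above sham. Arih1, the gene of HHARI, a ligase reported to act in ISG15 conjugation in human cells, was at 64.5, 48.8 and 67.3 CPM in sham and 32.5, 26.4 and 23.4 CPM in tMCAO. It fell by 1.25 ± 0.20 (adjusted p = 0.00114), again with separate groups, and both calls held in all 16 alternatives. The HERC genes Herc1, Herc2 and Herc4 were not called, and Herc3 was too low to test.

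Of 33 tested genes of ubiquitin-specific proteases, the family of Usp18, 2 were called higher and 1 lower, with a median log2 fold change of -0.07. These were Usp10 (0.79, adjusted p = 0.0214), Usp36 (1.19, adjusted p = 0.0342) and Usp24 (-0.87, adjusted p = 0.0288). None of the family was called with DESeq2, or when sham 1, sham 2, sham 3 or tMCAO 2 was left out, each in turn. Of the partners of USP18 at the interferon receptor, Stat2 rose (2.64 ± 0.45, adjusted p = 0.00182), from 3.80, 3.96 and 0.765 CPM in sham to 25.6, 18.9 and 13.8 CPM in tMCAO. Ifnar1 rose as well (1.04 ± 0.24, adjusted p = 0.0105), a call lost without sham 3 (adjusted p = 0.0528). Of 5 tested genes of interferon receptor chains, 2 rose, Ifnar1 and Il10rb, and 3 were not called, Ifnar2, Ifngr1 and Ifngr2. Il10rb, a chain of the interferon lambda receptor, rose by 0.66 ± 0.17 (adjusted p = 0.0162), in 13 of 16 alternatives. Ifnlr1, the other listed chain of that receptor, had no count in any library. Ifnar2, the chain that USP18 binds, was at 59.9, 132 and 151 CPM in sham and 199, 212 and 29.8 CPM in tMCAO. Its groups overlapped, with tMCAO 3 the lowest library of all (0.21 ± 0.80, adjusted p = 0.894). Itgb2, the beta chain of LFA-1, a receptor of free ISG15, rose by 1.13 ± 0.16 (adjusted p = 0.000579), and the alpha chain gene Itgal was too low to test.

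Of 9 tested exonuclease genes related to Isg20 by activity, 2 rose and none fell (median 0.55). Trex1, which degrades cytosolic DNA, went from 29.2 ± 7.27 to 80.7 ± 6.35 CPM (1.35 ± 0.20, adjusted p = 0.000685). Eri2 was at 1.74 ± 0.617 and 6.42 ± 1.03 CPM (1.74 ± 0.47, adjusted p = 0.0217), called in 9 of 16 alternatives. Around Eif2ak2, 4 of 12 tested genes of the eIF2 alpha kinases and their circuit rose and none fell (median 0.33). Without sham 1 the count was 2. Ppp1r15a, a phosphatase subunit that reverses the phosphorylation of eIF2 alpha, went from 291 ± 46.5 to 669 ± 123 CPM (1.09 ± 0.18, adjusted p = 0.00163). Adar, which edits double-stranded RNA and so limits PKR, went from 7.89 ± 2.09 to 27.5 ± 4.35 CPM (1.67 ± 0.28, adjusted p = 0.00176). Ddit3, the stress transcription factor CHOP, rose by 0.67 ± 0.16 (adjusted p = 0.0110), a call lost without sham 1 (adjusted p = 0.0633) or sham 2 (adjusted p = 0.0504). The kinase genes Eif2ak1 (0.43, adjusted p = 0.562) and Eif2ak4 (0.31, adjusted p = 0.675) were not called, and Eif2ak3 was too low to test.

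Of 5 tested dynamin family genes, 1 was called: Opa1, which fuses inner mitochondrial membranes (0.80 ± 0.22, adjusted p = 0.0219), in 9 of 16 alternatives. Of 13 tested genes of deoxynucleotide supply, the pathway whose products SAMHD1 degrades, 4 rose and none fell (median 0.65). Rrm2, a subunit of ribonucleotide reductase, was at 0.422, 3.96 and 2.29 CPM in sham and 54.7, 24.3 and 40.5 CPM in tMCAO (3.99 ± 0.52, adjusted p = 0.000926), and the estimate was 4.69 without sham 2. Tk1, thymidine kinase, rose by 3.30 ± 0.41 (adjusted p = 0.000315) and Dck, deoxycytidine kinase, by 1.61 ± 0.28 (adjusted p = 0.00211). Of 4 tested genes of the kinases and cyclins that phosphorylate SAMHD1, 3 rose: Cdk1 (2.63 ± 0.30, adjusted p = 0.000128), Ccne2 (2.78 ± 0.57, adjusted p = 0.00500, and 4.11 without sham 2) and Cdk2 (1.57 ± 0.36, adjusted p = 0.0100, lost without sham 1 at 0.0517). These genes were thus higher in the same libraries as Samhd1, and the part of cell division in the level of Samhd1 was not tested.

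**Figure D5:**
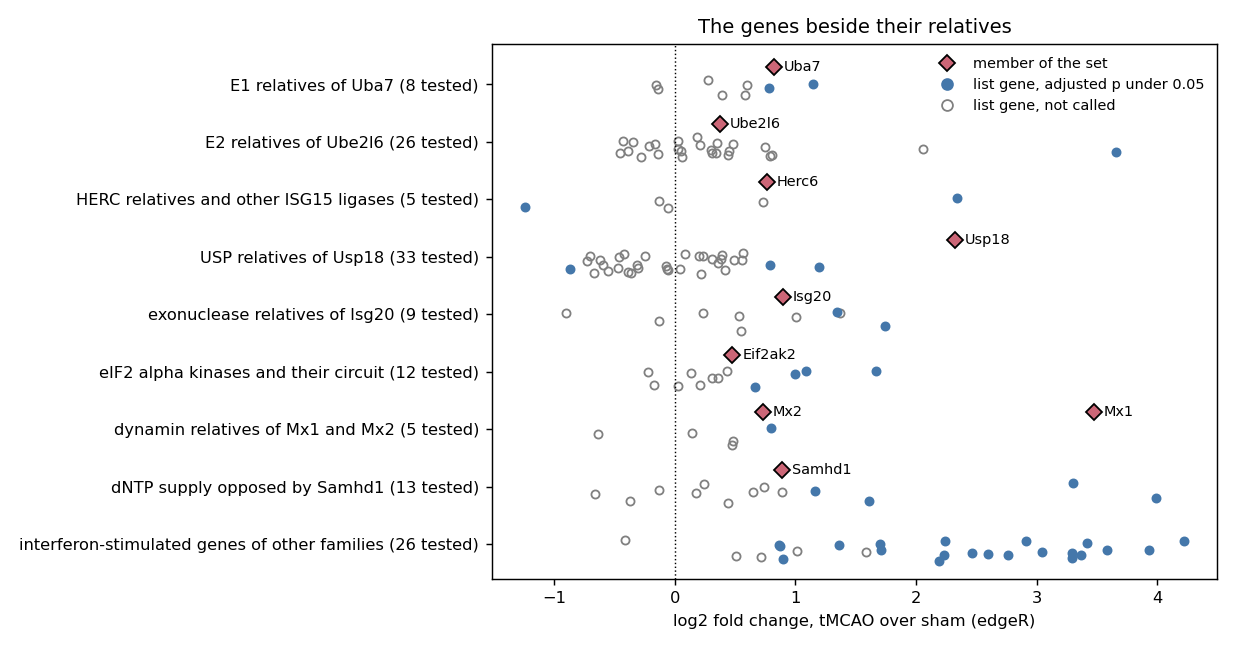
Log2 fold change of tMCAO over sham for the genes (diamonds) beside the tested genes of each list of relatives (circles, filled where the adjusted p is under 0.05); vertical scatter has no meaning. Usp18 (2.32) lies above all 33 other proteases, while Uba7 (0.83) and Ube2l6 (0.38) lie within the range of their relatives.

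Of 21 listed interferon genes, 18 had no count in any library, which allows a level of up to 0.400 CPM in sham and 0.520 CPM in tMCAO for each (3 counts over the group). Ifna16 had a single count, in tMCAO 2, and Ifng had counts in sham only, 1 in sham 2 and 4 in sham 3. Ifnb1, interferon beta, was at 4.64, 3.96 and 10.3 CPM in sham and 9.85, 3.77 and 45.3 CPM in tMCAO. Its groups overlapped, with a high value in tMCAO 3 alone (1.54 ± 1.04, adjusted p = 0.383). Of the 10 genes, 4 were highest in tMCAO 3, Isg15 among them, and 5 in tMCAO 2, Usp18 and Mx1 among them. The 30 listed interferon-stimulated genes of other families summed to 3103, 3226 and 2817 CPM in tMCAO 1 to 3, lowest in tMCAO 3. Without tMCAO 3 the estimate for Ifnb1 was -0.013 (adjusted p = 0.990). Irf9, which encodes the DNA-binding subunit of the factor complex that recognises the ISRE, rose (0.83 ± 0.19, adjusted p = 0.0103, lost without sham 3 at 0.0560). Of 26 tested interferon-stimulated genes of other families, 21 rose and none fell (median 2.24), with 19 to 24 called in alternatives that tested 26 to 29 of them, and 25 and 27 called of 30 under the looser low-count filters. By p they were led by Ifi27l2a (3.59), Irf7 (3.93) and Oas1a (3.37).

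Markers of some other cells moved in the same libraries, but 0 of 6 tested endothelial genes were called, nor was the 1 tested B cell gene. Of 7 tested genes of border-associated macrophages, 4 rose, and the list summed to 254 to 345 CPM in sham and 517 to 609 CPM in tMCAO. In the alternatives 3 to 5 of these were called higher, and without tMCAO 1 another was called lower. Of 6 tested monocyte genes, 3 rose, with sums of 76.1 to 92.4 and 88.9 to 277 CPM, highest in tMCAO 1. The plasmacytoid dendritic cell list, a cell type known for interferon production, summed to 450 to 485 and 654 to 818 CPM. Of 4 tested genes, 2 rose, Cox6a2 and Bst2, and 2 were not called (lowest log2 fold change -0.18). Ccr9 was at 2.29 CPM or less and Klk1 at 0 in every library, and the sum also holds Tcf4, Pacsin1 and Irf8. Bst2 is itself an interferon-stimulated gene. T and NK cell genes summed to at most 11.5 CPM and none could be tested. The choroid plexus list was at 13932, 44560 and 8615 CPM in sham 1 to 3 and 2271, 4028 and 9944 CPM in tMCAO 1 to 3, so the groups overlapped, with 1 of 6 tested genes lower. The astrocyte list summed to 136 to 408 CPM in sham and 63.0 to 90.5 CPM in tMCAO, with 2 of 4 tested genes lower, and none once any 1 tMCAO library was left out. The erythroid list summed to 955 to 6040 CPM in sham and 215 to 380 CPM in tMCAO. In the main edgeR fit 0 of 3 tested genes were called (unadjusted p 0.00932 to 0.0121). All 3 were called lower with DESeq2, limma voom, edgeR without robust estimation, or known Ensembl genes only. Without sham 3, 4 of 4 tested genes were called lower, and the remaining alternatives called 0 to 2. Neutrophil and oligodendrocyte sums overlapped between the groups, at 1865 to 2353 and 531 to 1910 CPM and at 186 to 1031 and 140.1 to 339 CPM, with 1 of 8 and 1 of 6 tested genes lower. The part of these cells in the levels of the 10 genes was not tested.

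The mean profile of the 10 genes over the 6 libraries, each gene centred on its own log2 mean, was compared with that of 5160 other genes (mean log2 CPM 4 or more). The nearest were Gaa, Cltc, Vps8, Map3k8 and Apobec1, with root mean square differences of 0.093, 0.096, 0.101, 0.103 and 0.112 on the log2 scale. All 5 were called higher, by 1.14 to 1.50, which largely follows from choosing them by likeness to a profile that was higher in every tMCAO library. For Apobec1, the gene of a cytidine deaminase, levels were 67.5, 56.7 and 67.7 CPM in sham and 149.7, 158 and 176 CPM in tMCAO, and for Map3k8, a kinase gene, 18.6, 19.8 and 22.2 against 49.7, 67.9 and 51.1 CPM. The groups did not overlap in either gene, which also largely follows from the choice by profile.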

How the data were processed

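Per the file headers, the authors deposited raw counts for each gene in each library, and CPM columns in which the authors scaled these counts by library totals. Recomputed CPM differed from the deposited CPM by at most 4.87e-06. The submitters' processing notes name minimap2. Not given in the sources used here are its version, the build, the annotation, the counting rule and whether strand was used. Coordinates of the counted genes are therefore not printed, and those of the promoter windows come from the RefSeq table for GRCm38.p6. Per the labels' protocols, a nanopore cDNA kit with PCR was used, without molecular identifiers, so intervals and floors cover counting error only. Of 38219 lines, 12 without values were left out. All 10 genes matched the GENCODE M21 names by Ensembl ID.

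Counts were tested with edgeR 4.0.16 (R 4.3.3): filterByExpr (minimum count 10, minimum total 15), TMM scaling, robust quasi-likelihood F tests with group as the only term and 3 libraries a group, and Benjamini-Hochberg adjustment over 13127 genes, called at 0.05. The SE is the absolute log2 fold change divided by the square root of F. The biological coefficient of variation was 22.6%. Which pools were handled together is not labelled, and p-values cover only the spread among the 6 pools. Replicates differed beyond sampling noise (chi-square of 4.64 to 9.02 per degree of freedom). The code was tested on simulated counts. Alternatives were upper-quartile scaling, library totals, other low-count filters, no robust estimation, a replicate block, DESeq2 1.42.0, limma 3.58.1 voom, known genes only, each library left out, and, added after seeing the data, sham 1 and tMCAO 3 left out together.

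The 10 genes, the lists and the tests were chosen with earlier results of these data known. Named list genes are up to 3 called genes of each list with the smallest p. List genes named without a call or a test, and the marker genes named, were added after their values were seen. In GENCODE M21, Uba7, Herc6, Usp18 and Eif2ak2 overlap other genes. Of these only Gm20661, on the strand of Uba7, is in the table, with 0 counts. The result of 1 gene that the naming rule covers is left out here.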

Additional observations from a re-analysis of the deposited data

How the results depend on the processing

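Isg15, Usp18 and Mx1 were called higher under all 16 alternatives. The count of the 10 genes called was 5 under the other scalings, filters and tools, except 6 with library totals only, which shifted the median of all genes to 0.11 and theirs to 0.97 (63.2% of all calls were then higher, against 50.6%; 42.2% with upper-quartile scaling). With 1 library left out it was 3 to 5, and their median 0.80 to 0.97. Without sham 1 and tMCAO 3 together it was 3. Over all genes, leaving out 1 library gave 700 to 1423 higher and 554 to 1167 lower calls, against 1204 and 1176; no low-count filter gave 2053 and 1986, known Ensembl genes only gave 622 lower, and leaving out sham 1 and tMCAO 3 gave 652 lower. Fewer libraries or genes entered some of these fits; the cause was otherwise not tested. Ifnb1 ranged from -0.013 to 2.06 with 1 library left out, the lowest without tMCAO 3, and was at -0.23 without sham 1 as well. The IRF core in place of the ISRE raised the genes with a match from 2 to 4, and the share of all genes with a match from 9.76% to 26.7%. A replicate block gave 834 higher and 828 lower calls over all genes. It gave 5 of the 10 genes called, a median of 0.86, and 0 of the 33 ubiquitin-specific protease genes called. Same-numbered libraries did not deviate together (correlations -0.23, 0.03 and -0.18). So few libraries cannot decide whether the numbers pair them, and the labels do not say. At 8, 3 and 8 sham counts, the level of Mx1 in sham, and so its fold, is imprecise.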
